A study of Rattus norvegicus with 34 samples.

Results

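Sperm of first-generation (F1) male rats descended from ifosfamide-treated fathers was compared with sperm of F1 control males, over every 1 kb window of the 20 autosomes. These windows number 2618741 of the 2782040 windows in the table for the whole genome, and 1023751 of them had enough reads to be tested. DNA methylation was profiled by methylated DNA immunoprecipitation and sequencing (MeDIP-seq), and the genome build is Rnor_6.0. The parental (F0) males, outbred Hsd Sprague Dawley rats, were injected at 26, 29 and 32 days of age with 8.5 mg/kg ifosfamide, or with 1.1 mL/kg phosphate-buffered saline (PBS) for the control lineage. The F1 males received no treatment themselves. Each group comprised 6 pools, and a pool held the sperm DNA of 3 to 4 males.

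The design limits what a pool stands for. The F0 generation held 3 control and 5 ifosfamide males, from which 25 control and 18 ifosfamide F1 males descended, so several males of a group share a father. The labels do not say which fathers contributed to which pool, and p-values below measure the spread between pools. The strain is outbred, and differences in DNA sequence or copy number between families also enter MeDIP signal. Sperm came from the cauda epididymis, with somatic cells removed by brief sonication. No annotation of this build was used here, so the purity of the sperm was not checked against imprinted loci, and windows are given by position without gene names.

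Ifosfamide is an alkylating prodrug used against solid tumours, and its activated form crosslinks DNA. Sperm carry a heavily methylated genome, with unmethylated islands at many promoters and with methylation over most repeats and gene bodies. In MeDIP an antibody captures single-stranded fragments that hold 5-methylcytosine, so the read density of a window rises with its methylation, its density of CpG sites and its number of copies in the genome. A fall or rise of MeDIP signal is therefore a change in captured DNA per window and not a percentage of methylated cytosine.

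The 6 control libraries held 23336048 to 34051679 window counts and the 6 ifosfamide libraries 25531658 to 39440265. Library pairs were compared by a chi-square test of their window counts, which averages 1 per degree of freedom where only sampling noise separates them. The value ran from 1.06 to 1.54 over the 30 pairs within a group and from 1.07 to 1.53 over the 36 pairs between groups, with medians of 1.19 and 1.25. The closest pairs were ifosfamide pools 1 and 2, at 1.06, and control pool 1 with ifosfamide pool 6, at 1.07. No pair agreed within sampling noise, and all 12 pools were counted as separate samples.

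Loss of signal was more frequent than gain among the windows that passed the test. In edgeR's quasi-likelihood test, 521 autosomal windows were lower in ifosfamide sperm at a Benjamini-Hochberg adjusted p below 0.05 (called lower, 0.0509% of those tested) and 51 were higher (called higher, 0.00498%). Over all chromosomes the shares were 0.0535% and 0.00489%. Losses thus made up 91.1% of the calls. The median fold change over all tested autosomal windows was 0.00 on the log2 scale, with 49.6% of windows below 0. The scaling centres the fold changes, so these values say nothing of a shift of the genome as a whole. With scaling factors taken before the filter on low counts, the median was 0.03 and 85.9% of calls were losses, 372 lower and 61 higher.

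Shifts at an unadjusted p below 0.05, termed shifted below, were far more even between directions. Of the tested autosomal windows, 38509 were shifted lower (3.76%) and 31873 shifted higher (3.11%). Which direction was larger depended on the scaling. With scaling factors taken before the filter on low counts, 30679 were shifted lower and 39758 higher. Groups did not overlap in 1764 windows with the 6 ifosfamide pools on the low side (0.172%) and in 1539 with them on the high side (0.15%). The excess of losses among calls was therefore not matched by an equal excess among windows whose groups do not overlap.

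Called windows changed by moderate amounts. Windows called lower had a median fold change of -0.79 (log2), from -1.94 to -0.56, and their median signal was 3.08 CPM (counts scaled to library size) in control and 1.76 CPM in ifosfamide sperm. Windows called higher had a median of 0.86 (log2), from a median control signal of 1.06 CPM to 1.80 CPM in ifosfamide sperm. The calls chose these values, which describe the called windows and are no separate evidence. The groups did not overlap in 118 of the 521 windows called lower (22.6%) and in 13 of the 51 called higher (25.5%).

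Single pools weighed on the number of calls. Without control pool 1 there were 1769 windows called lower and without ifosfamide pool 1 there were 1440. Leaving out control pool 2, 3, 4 or 6 gave 281, 250, 115 or 140 such windows, and leaving out ifosfamide pool 3 or 6 gave 115 or 224. For windows called higher, leaving out control pool 1, 2, 3 or 6 gave 122, 22, 83 or 12, and leaving out ifosfamide pool 1, 3 or 4 gave 162, 17 or 86. Losses were the larger class in each of these 12 fits, 75.1% to 93.5% of the calls. Over the windows called lower, control pool 1 had a median of -0.65 (log2) relative to the mean of the 6 control pools, close to ifosfamide pool 1 at -0.66 and below ifosfamide pool 4 at -0.57. Ifosfamide pool 3, at -1.07, was the lowest of the 12 pools in 244 of the 521 windows.

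Loss was concentrated at the strongly enriched end of the genome. The decile of windows with the highest control signal, at 1.29 CPM or more, held 433 of the 521 windows called lower (83.1%) and 22 of the 51 called higher (43.1%). In that decile 7.82% of windows were shifted lower and 2.86% higher. A level set by the control pools moves with the contrast itself, since a window that is high in the controls by chance lies lower in the other group. The same count was therefore made with the level set by the mean of all 12 pools, which gave 388 windows called lower and 27 called higher in the highest decile, with 6.09% shifted lower and 3.97% higher. Set by sperm of the second-generation (F2) ifosfamide lineage, whose 6 pools enter neither group, the highest decile held 425 called lower and 26 called higher, with 7.68% shifted lower and 3.37% higher.

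Gain at the weak end did not keep its size under another level. In the lowest decile by control signal, 7.71% of windows were shifted higher and 0.0361% lower, and the median fold change was 0.18 (log2). With the level set by all 12 pools, the lowest decile had 2.68% shifted in each direction and a median of 0.00. With the level set by F2 ifosfamide sperm, it had 3.38% shifted higher, 2.17% shifted lower and a median of 0.03. The excess of losses in the highest decile was present under each of the 3 levels.

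**Figure D1:**
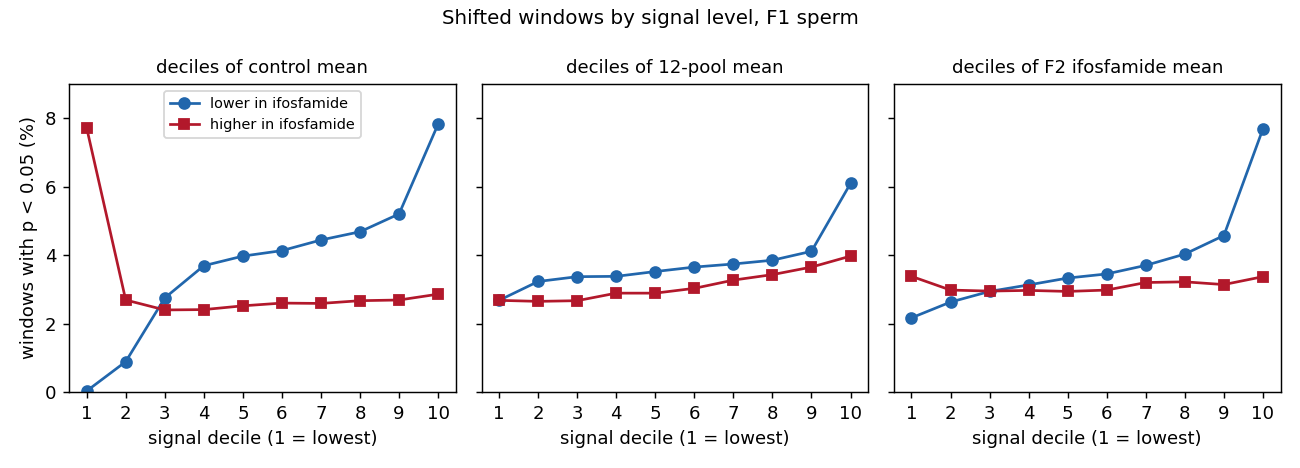
Percentage of tested autosomal windows with an unadjusted p below 0.05 (y axis) by decile of signal (x axis, 1 is the lowest), with the level set by the 6 control pools, the 12 F1 pools or the 6 F2 ifosfamide pools. Losses (circles) reach 7.82%, 6.09% and 7.68% in the highest decile, above the gains (squares) in each panel, while the 7.71% of gains in the lowest control decile falls to 2.68% and 3.38% under the other levels.

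The size of the falls pointed the same way. By the 12-pool level, 876 windows of the highest decile fell by more than 1.5-fold and 82 rose by as much. In the lowest decile 2305 fell and 2332 rose by more than 1.5-fold, where each estimate is less precise. The median standard error (SE) of the log2 fold change was 0.28 in the lowest decile and 0.15 in the highest, so the test could detect smaller changes at the enriched end. Among the 1024 windows in the top 0.1% by control signal, at 7.95 CPM or more, 105 were called lower (10.3%) and 15 higher (1.46%). The next 9214 windows, from 2.74 to 7.94 CPM, held 171 called lower and 2 called higher. By the 12-pool level the same 2 classes held 85 lower with 16 higher, and 145 lower with 1 higher.

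As a share of all autosomal counts, no decile of signal differed between the groups. Over deciles of all autosomal windows with a count, set by the 12-pool mean, the highest decile held 38.1% ± 0.557 of the counts in control and 38.3% ± 0.32 in ifosfamide pools (SD, n = 6). Its difference had an exact two-sided permutation p of 0.396 over the 924 splits of 12 pools, and the adjusted p was 0.939 for each of the 10 deciles. The smallest unadjusted p values were 0.216 and 0.325, for the 5th and 6th deciles. The fall in called windows was thus small beside the total. Windows called lower summed to 2990 CPM in control and 1790 CPM in ifosfamide sperm, a difference of -1210 CPM, and windows called higher rose by 209 CPM in sum.

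The losses were also described by their local shape. Each window's signal, as the mean of the 12 pools, was divided by the mean of its 2 neighbouring windows. Windows called lower had a median ratio of 3.37. Of the 5082 tested windows at 10 or more times their neighbours, termed sharp here, 120 were called lower (2.36%) and 0 higher in edgeR, with 17.3% shifted lower and 1.99% shifted higher. DESeq2 and limma likewise called 0 sharp windows higher, with 102 and 76 called lower. Over all tested windows only 0.00498% were called higher in edgeR, so a count of 0 among 5082 says little about gains. Other edgeR fits called some sharp windows higher, 3 without control pool 3 and 2 each without ifosfamide pool 1 or 4. With no filter beyond 12 counts in total it was 1, and with windows per read as a covariate, described below, 5. All calls of DESeq2 at 1 kb lay in the highest decile of the 12-pool level. Of the 315129 windows below the level of their neighbours, 30 were called lower (0.00952%) and 21 higher (0.00666%).

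The gradient ran through all 5 classes of shape. The median fold change was 0.02, 0.01, -0.02, -0.06 and -0.11 (log2) for windows below 1, at 1 to 2, 2 to 5, 5 to 10, and 10 or more times their neighbours. Sharp and other windows were then set side by side within classes of the 12-pool level. Between 1.29 and 1.7 CPM, 4 of 546 sharp windows were called lower (0.733%), beside 65 of 50642 others (0.128%). In the top 0.1% by level, 49 of 126 sharp windows were called lower (38.9%), beside 35 of 897 others (3.9%), with median levels of 12.6 and 13.4 CPM. The share was higher in sharp windows in 5 of the 6 level classes. In the lower 50% of windows by level, 0 of 1385 sharp windows were called lower in edgeR, with 114 at an unadjusted p below 0.05, and 32 of 510486 others were called. Limma also called 0 of those 1385. DESeq2 by default sets no adjusted p for windows of low mean signal, and all its 318 lower calls lay in the highest decile. Its count of 0 among the 1385 therefore decides nothing. In both shapes the share rose with level. These counts describe the called windows and were not tested. The fold change of sharp windows was below 0 in 67.3% of them, with quartiles of -0.29 and 0.05 (log2). The sharp class was 0.496% of the windows tested and held 23.1% of those called lower that have a neighbour on both sides.

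**Figure D2:**
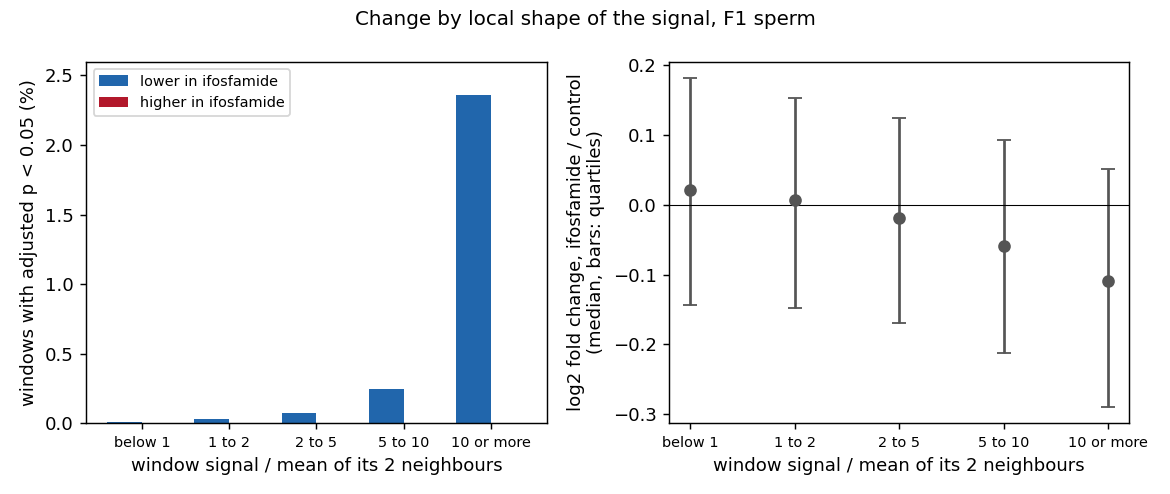
Left, percentage of tested windows with an adjusted p below 0.05 (y axis), lower or higher in ifosfamide sperm, by the ratio of a window's signal to the mean of its 2 neighbours (x axis). Losses reach 2.36% in the sharp class, where no window was called higher, beside 0.00498% called higher over all tested windows. Right, the median log2 fold change (y axis) with quartiles as bars, which falls from 0.02 to -0.11 across the same classes.

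The sharp windows were then summed in each pool. They held 0.951% ± 0.0841 of autosomal counts in control pools and 0.826% ± 0.0353 in ifosfamide pools (SD, n = 6). The control pools, 1 to 6, held 0.82%, 0.935%, 0.979%, 1.05%, 0.901% and 1.02%. The ifosfamide pools, 1 to 6, held 0.883%, 0.833%, 0.775%, 0.809%, 0.83% and 0.826%. The other 5 control pools lay above all ifosfamide pools, and control pool 1 lay among the ifosfamide pools. The exact permutation p was 0.0108 and the adjusted p over the 5 shape classes 0.0541, which misses the threshold of 0.05. This grouping and its test were chosen after the calls had been seen.

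Windows called lower with the highest control signal were mostly sharp. The window at chr1:36361001-36362000 stood at 120 ± 28.6 CPM in control and 75.6 ± 7.4 CPM in ifosfamide pools (SD, n = 6), between neighbours of 0.0294 and 0.134 CPM. Control pools ranged from 89.8 to 156 CPM with a median of 109, and ifosfamide pools from 67.3 to 84.6 CPM with a median of 74.4. The groups did not overlap, and the fold change was -0.67 (log2, SE 0.14, edgeR adjusted p = 0.0225).

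At chr15:78122001-78123000 control pools ranged from 45.1 to 117 CPM (median 76.4) and ifosfamide pools from 29.8 to 54.3 CPM (median 39). Control pool 1, at 45.1 CPM, overlapped the ifosfamide pools. The fold change was -0.98 (log2, SE 0.15, edgeR adjusted p = 0.000323), and its neighbours held 0.106 and 0.266 CPM. The window at chr11:90463001-90464000 is the last of its chromosome in the table, with 0.11 CPM in the window before it. It thus has no neighbour ratio and is not in the sharp class. It fell from 58.8 ± 17 to 36.3 ± 5.66 CPM (-0.69 log2, edgeR adjusted p = 0.0146), with control pools from 39 to 80.3 CPM and ifosfamide pools from 29.9 to 44.2 CPM.

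The window at chr18:47037001-47038000 fell from 40.9 ± 9.8 to 26.2 ± 2.6 CPM (-0.64 log2, edgeR adjusted p = 0.0177), and its groups did not overlap. The window at chr13:33592001-33593000, with neighbours of 5.82 and 14.2 CPM, was not sharp either. It fell from 52 ± 13.3 to 33.2 ± 5.77 CPM (-0.65 log2, edgeR adjusted p = 0.0306). In each of these 5 windows the SD over pools was larger in control than in ifosfamide sperm. Over the windows called lower the SD of log2 signal was smaller in ifosfamide pools in 378 of 521, and over those called higher in 41 of 51, beside 53.1% of all tested windows. Of these 5 windows, that on chr15 kept its call when any single pool was left out and lost it in the robust edgeR fit. The other 4 lost it without control pool 4 or 6, or without ifosfamide pool 3 or 6, and that on chr13 also without control pool 2 or 3 or ifosfamide pool 2.

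**Figure D3:**
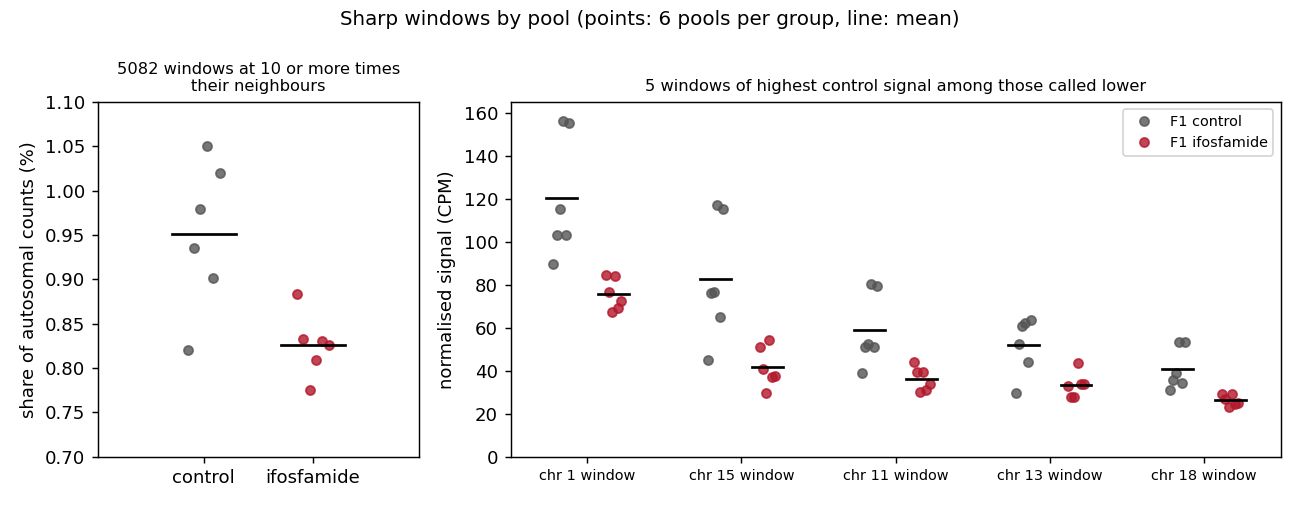
Left, share of autosomal counts (y axis, percent, not starting at 0) in the 5082 sharp windows for the 6 control and 6 ifosfamide pools, where control pool 1, at 0.82%, lies among the ifosfamide pools. Right, signal (y axis, CPM) of the 5 windows with the highest control signal among those called lower, by pool, with black lines for means, such as 120 and 75.6 CPM on chromosome 1.

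Weak windows were called in both directions. The 3 windows of lowest control signal among those called lower, on chromosomes 14, 1 and 2, had 0.429 to 0.433 CPM in control and 0.142 to 0.169 CPM in ifosfamide pools. The groups did not overlap in any of the 3, and their calls were lost in 13, 2 and 10 of 22 other fits. The 3 windows of lowest control signal among those called higher, on chromosomes 7, 15 and 5, had 0.208 to 0.243 CPM in control and 0.499 to 0.565 CPM in ifosfamide pools. The groups overlapped in those on chromosomes 7 and 5 and not in that on chromosome 15, and the calls were lost in 9, 15 and 10 of 22 other fits. At this depth a CPM of 0.2 is a handful of reads per library. The filter asked for the minimum count in as many pools as a group holds. Windows this weak could thus be tested on the strength of their higher group alone. This favours groups without overlap, so their separation here is a description and no separate evidence.

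Where the flanking windows could be tested, losses ended within a kilobase or so of the called window. Windows adjacent to one called lower had a median fold change of -0.12 (log2, 614 windows), and those 2 kb away a median of 0.00 (507 windows). Adjacent windows share reads, since a read that crosses a boundary was counted in both, while windows 2 kb apart have a whole window between them. A neighbour shifted in the same direction was present at 177 of the 521 windows called lower (34%). Of the 521, 100 had no tested neighbour, so the extent of the loss beside them could not be seen. The windows called lower lay a median of 1450 kb from the nearest other one, and 103 of 521 had another within 100 kb.

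Gains were described in 2 sets. Of the 51 windows called higher, 36 had a neighbour shifted the same way (70.6%). Only 1 of them had no tested neighbour, beside 100 of those called lower, so the shares with a shifted neighbour are not like for like. Tested windows at 2 kb from those called higher had a median of 0.39 (log2). Over the other fits this median at 2 kb ran from 0.08 in the robust edgeR fit to 0.70 without control pool 3. In the main fit the breadth came from 4 megabases, which were set apart after the values had been seen because they hold the 6 longest runs of shifted windows. These are chromosome 14 at 46 to 47 Mb, with 13 windows called higher, chromosome 1 at 11 to 12 Mb with 6, chromosome 5 at 91 to 92 Mb with 3 and chromosome 6 at 30 to 31 Mb with 1. Their 23 called windows had a median control signal of 12.5 CPM, and each had a shifted neighbour. The median fold change was 0.62 (log2) at 1 kb from them, 0.53 at 2 kb and 0.45 at 5 kb. A choice by long runs favours shifted neighbours and raised values nearby, so these numbers describe the set and test nothing.

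The other 28 windows called higher were weak and narrow, where the split had already taken out the longest runs. Their median signal was 0.43 CPM in control and 1.01 CPM in ifosfamide sperm, and 13 of them had a shifted neighbour (46.4%). At 2 kb from them the median fold change was 0.03 (log2). All 13 windows called higher without overlap of the groups were among these 28, and none was among the 23. Weak windows could be tested on the strength of their higher group alone, which favours absence of overlap.

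**Figure D4:**
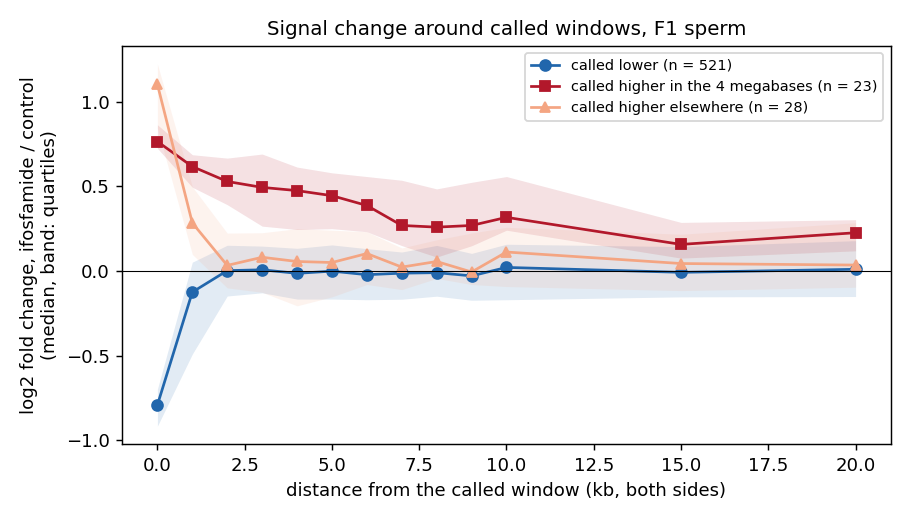
Median log2 fold change (y axis, bands for quartiles) by distance from a called window (x axis, kb, both sides together), for windows called lower, windows called higher in the 4 megabases of the longest runs, and windows called higher elsewhere. Only tested windows are included. The first and last return to 0.00 and 0.03 by 2 kb, and the second stands at 0.53 at 2 kb and 0.45 at 5 kb. Values at distance 0 were fixed by the calls, and the choice of the 4 megabases by long runs favours high values near the windows of the second set.

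Runs of adjacent shifted windows were counted in each direction over the whole of the autosomes. Losses formed 137 runs of 3 or more windows and gains 120. Only 3 loss runs reached 5 windows, and the longest had 6, while 13 gain runs reached 5 and the longest had 19. Without the 4 megabases above, the gain runs of 3 or more numbered 106, those of 5 or more numbered 5, and the longest had 5 windows. The share of shifted windows lying in runs of 2 or more was 14.6% for losses and 15.2% for gains.

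Beyond the adjacent window, clustering of shifted windows was slight. A window shifted lower was followed by another in 13.5% of tested pairs at 1 kb and in 4.16% at 2 kb, beside 3.76% of all tested windows. A window shifted higher was followed by another in 11.8% at 1 kb and 4.08% at 2 kb, beside 3.11% of all. At 100 kb these shares were 3.78% and 3.49%. The correlation of fold changes across pairs of windows, which are not independent replicates, was 0.24 at 1 kb, 0.02 at 2 kb and 0.01 at 100 kb.

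The longest gain run, at chr14:46637001-46656000, covered 19 windows and held 8 of the called ones. Its mean signal per window was 16.1 ± 6.7 CPM in control and 24.5 ± 5.29 CPM in ifosfamide pools (SD, n = 6). Control pools 1 to 6 stood at 13.3, 13.9, 27.8, 18.7, 15 and 7.99 CPM, and ifosfamide pools 1 to 6 at 16.6, 24.2, 26.4, 24.3, 32.9 and 22.7 CPM. The groups overlapped, since control pool 3 exceeded 5 of the 6 ifosfamide pools. Its strongest window rose by 0.91 (log2, SE 0.18, edgeR adjusted p = 0.0114), a call that was lost without control pool 2 or 6 or ifosfamide pool 3 or 5, and in DESeq2.

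The 5 next runs lay on chromosomes 5, 1 and 6 and again on 14 and 1. The run at chr5:91127001-91138000 stood at 11.5 ± 4.86 CPM in control and 17 ± 3.73 CPM in ifosfamide pools, and that at chr1:11962001-11971000 at 8.46 ± 3.44 and 12.9 ± 2.67 CPM. The run at chr6:30627001-30636000 stood at 10.3 ± 4.63 and 15.1 ± 3.15 CPM. The run at chr14:46680001-46687000 stood at 6.39 ± 2.32 and 9.87 ± 3.14 CPM, and that at chr1:11907001-11913000 at 8.74 ± 3.38 and 14.6 ± 3.47 CPM. Each also overlapped between groups, and the strongest window of each was called, with adjusted p values of 0.00221 to 0.0123 in edgeR. DESeq2 and the robust edgeR fit called the strongest window in none of the 6 runs.

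The 6 runs rose and fell together across pools, on 4 different chromosomes. In all 6 the lowest pool was control pool 6, at 0.34 to 0.42 times the mean of the 12 pools, and the highest was ifosfamide pool 5, at 1.57 to 1.89 times. Control pool 3 was the highest control in all 6, at 1.19 to 1.44 times, and ifosfamide pool 1 the lowest ifosfamide pool, at 0.74 to 0.84 times. Control pools 1, 2 and 5 lay between 0.62 and 0.78 times the mean in each run. The highest and lowest pools within each lineage were thus the same in each of the 6 runs.

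**Figure D5:**
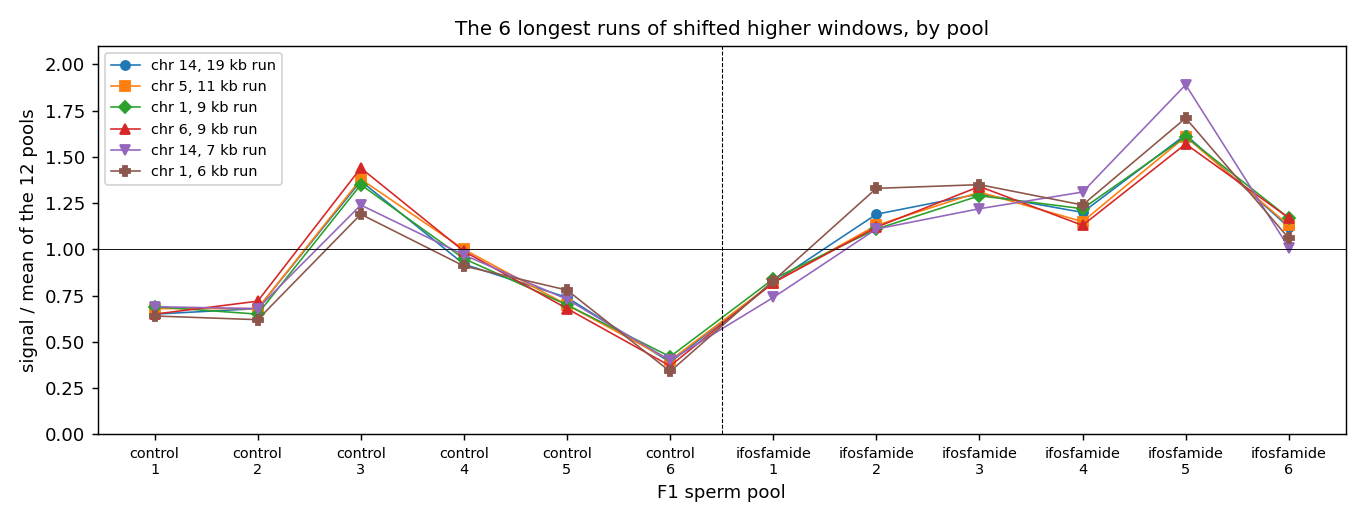
Signal of each F1 pool relative to the mean of the 12 pools (y axis, ratio) in the 6 longest runs of windows shifted higher, 1 line per run, with control pools left of the dashed line and ifosfamide pools right of it (x axis). The lines follow each other, from 0.34 to 0.42 in control pool 6 to 1.57 to 1.89 in ifosfamide pool 5, and control pool 3 lies above ifosfamide pool 1 in every run.

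The same pattern was looked for over all tested autosomal windows of at least 3 CPM, those of the 6 runs included. Of 7149 autosomal windows of at least 3 CPM, 68 had a correlation above 0.9 with the mean pattern of the 6 runs over the 12 pools, measured on log2 signal, and 0 had one below -0.9. Of the 68, 63 lay in the 4 megabases, where windows of the runs were compared with a pattern they had set themselves. Elsewhere 5 windows were alike, 3 of them in the megabase that follows on chromosome 6. The fold changes of all 68 ran from 0.21 to 0.87 (log2), and 16 of the 68 were called higher. The likeness was chosen from these pools and carries no test.

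The longest loss runs were shorter. Their median fold changes ran from -0.64 to -0.37 (log2) over the 6 longest, beside 0.54 to 0.66 in the 6 longest gain runs. The run at chr14:48133001-48139000, of 6 windows, stood at 2.15 ± 0.483 CPM in control and 1.55 ± 0.349 CPM in ifosfamide pools, and none of its windows was called. The run at chr1:100483001-100489000, also of 6 windows, stood at 6.6 ± 1.6 and 5.03 ± 1.49 CPM with no called window. The third longest, at chr7:140570001-140575000, of 5 windows, stood at 4.48 ± 1.17 and 3.1 ± 0.99 CPM and held no called window. The runs at chr9:81146001-81150000 and chr17:44404001-44408000, of 4 windows each, had strongest windows called at -0.63 (log2, edgeR adjusted p = 0.0232 and 0.0398). Those calls were lost in 9 and 14 of 24 other fits. The groups overlapped in these 5 runs. Of the 6, only that at chr11:57392001-57396000, of 4 windows, separated the groups. Control pools ranged from 0.803 to 1.12 CPM (median 0.947) and ifosfamide pools from 0.508 to 0.717 CPM (median 0.62), and its strongest window was called at -0.69 (log2, edgeR adjusted p = 0.0484). That call was lost in 18 of the 23 other fits in which the window could be tested, 9 of them fits without 1 pool.

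Wider bins asked whether losses extended over larger domains. At 10 kb, 159 bins were called lower (0.062%) and 10 higher (0.0039%), and at 100 kb 17 lower (0.065%) and 0 higher (0%). At 1 Mb edgeR called 0 of 2629 bins in either direction (0%), with 76 lower and 109 higher at an unadjusted p below 0.05. DESeq2 called 5 lower and 4 higher at 1 Mb, and limma 0 in either direction. For 100 kb bins higher in ifosfamide sperm, 799 had an unadjusted p below 0.05, and DESeq2 called 6 and limma 0. The spread of fold changes narrowed with width, with an SD of 0.24, 0.13, 0.05 and 0.03 (log2) from 1 kb to 1 Mb. The largest rise at 100 kb, 0.63 (log2), was not called.

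Called bins mostly carried a single strong window. When the highest window was taken out of every bin, 15 of the 159 lower 10 kb bins and 2 of the 17 lower 100 kb bins were still called. The median fold change of the bins first called lower went from -0.55 to -0.18 (log2) at 10 kb and from -0.33 to -0.09 at 100 kb. Of the 10 bins called higher at 10 kb, 5 were still called, with a median going from 0.71 to 0.59. The highest window held a median of 66% of the counts in the lower 10 kb bins, and 24% in the higher ones. Leaving out pools moved the counts too. Lower 10 kb bins numbered 475, 83 or 81 when control pool 1, 4 or 6 was left out, and 337 or 87 when ifosfamide pool 1 or 3 was. Lower 100 kb bins numbered 63, 7, 0 or 1 when control pool 1, 3, 4 or 6 was left out, and 7, 0 or 2 when ifosfamide pool 2, 3 or 6 was.

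Of the 4 lower 10 kb bins examined under every fit, that at chr8:89580001-89590000 kept its call throughout. Its control pools ranged from 10.9 to 16.7 CPM (median 12.2) and its ifosfamide pools from 6.97 to 9.08 CPM (median 8.75), without overlap. The fold change was -0.67 (log2, SE 0.09, edgeR adjusted p = 0.000101) and stayed at -0.58 without its highest window, which held 47% of its counts. The call held under each of the 25 other fits. Other lower bins, noted after their values were seen, fell further than this without their highest window. They include chr16:51020001-51030000, at -0.76 (log2) and -0.80 without it, and chr7:145720001-145730000, at -0.69 in both cases. By contrast, the bins at chr15:78120001-78130000 and chr14:54140001-54150000 had 99% and 95.5% of their counts in the highest window. Their fold changes were -0.96 and -1.16 (log2, edgeR adjusted p = 0.000101 for each) and became 0.11 and -0.03 without it. Both calls were also lost in the robust edgeR fit.

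Of the 100 kb bins, that at chr10:35000001-35100000 fell from 74.4 ± 9.28 to 57.2 ± 1.74 CPM (SD, n = 6). Control pools ranged from 65 to 87.3 CPM and ifosfamide pools from 55.2 to 59.5 CPM, without overlap. The fold change was -0.38 (log2, SE 0.06, edgeR adjusted p = 0.0159), and -0.25 without the highest window (adjusted p = 0.0254). The call was lost without control pool 4, without ifosfamide pool 3 and in the robust edgeR fit. The bin at chr9:100001-200000, next to the start of the chromosome, fell from 35.2 ± 3 to 28.9 ± 0.917 CPM (-0.28 log2, edgeR adjusted p = 0.0161), and -0.11 remained without its highest window (adjusted p = 0.713). It lost its call without control pool 4 or 6 or ifosfamide pool 3.

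Of the 4 gains of lowest p at 10 kb, 3 lay in the distal part of chromosome 7, which also holds the called loss at chr7:145720001-145730000. The bins at chr7:145570001-145580000, chr7:145560001-145570000 and chr7:145310001-145320000 had log2 fold changes of 0.81, 0.78 and 0.77 (edgeR adjusted p = 0.00548, 0.0088 and 0.0138). Without their highest windows the values were 0.86, 0.73 and 0.73, so these gains were spread over the bin. In the first of them control pools ranged from 1.96 to 5.86 CPM (median 3.44) and ifosfamide pools from 3.38 to 8 CPM (median 7.12), with overlap. The other of the 4, at chr6:30620001-30630000, lies in a megabase of the longest runs and rose from 34.6 ± 11 to 54.5 ± 12.4 CPM (0.65 log2, edgeR adjusted p = 0.00635). It had 0.44 (adjusted p = 0.0726) without its highest window, and its call was lost without control pool 2 or 6, in DESeq2 and in the robust edgeR fit. The 3 calls on chromosome 7 were all lost without control pool 2, and each also without at least 1 ifosfamide pool, namely pool 6, 3 and 6. They were lost in the robust edgeR fit as well.

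Over the chromosomes losses were scattered. The 521 windows called lower fell in 431 megabases, with at most 4 in any of them, while the 51 called higher fell in 27, with at most 13. Lower calls per 100 Mb of chromosome ran from 11.2 on chromosome 19 to 34.2 on chromosome 16. As a share of windows tested they ran from 0.0235% to 0.089% on the same chromosomes. Chromosome 14 held 14 of the 51 windows called higher, and 5 autosomes held none. The spread between chromosomes was not tested.

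No autosome's share of the autosomal counts differed between the groups after adjustment over the 20 autosomes. The lowest p belonged to chromosome 14, with 4.45% ± 0.039 of the counts in control and 4.51% ± 0.0211 in ifosfamide pools (exact permutation p = 0.00649, adjusted p = 0.13). That difference lay in the single megabase from 46 to 47 Mb, which was singled out after its values had been seen. There control pools held 0.258% to 0.402% of autosomal counts and ifosfamide pools 0.356% to 0.418%. Without it the chromosome held 4.14% ± 0.0146 and 4.14% ± 0.0195 (exact permutation p = 0.823). The megabase was taken out for its difference, which favours a small remainder, so this p decides nothing. Chromosome 1 was next, with a difference of -0.0454 percentage points (exact permutation p = 0.0649, adjusted p = 0.649).

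Position along the chromosome made little difference to the total. Of 11 position classes, the first decile of chromosome length had the lowest p, with a difference of 0.0577 percentage points (exact permutation p = 0.00866, adjusted p = 0.0952), followed by the eighth decile, at -0.0499 points (exact permutation p = 0.039, adjusted p = 0.214). Windows within 2 Mb of a chromosome end held 2.72% of counts in control and 2.71% in ifosfamide pools (exact permutation p = 0.392). Losses were nonetheless denser there. Of 24564 tested windows within 2 Mb of an end, 34 were called lower (0.138%), beside 0.0747% at 2 to 5 Mb. Farther in there was no steady decline, with 0.0466% at 5 to 10 Mb, 0.0382% at 10 to 25 Mb, 0.0539% at 25 to 50 Mb and 0.0491% beyond. Sharp windows were also denser near the ends, with 220 of the 5082 within 2 Mb (4.33%) beside 2.4% of all tested windows, and 18 of the 34 windows called lower there were sharp.

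A measure of the libraries was higher on average in ifosfamide pools, though the groups overlapped and the difference did not reach p below 0.05. Each read was counted in 1.18 ± 0.0257 windows on average in control pools and 1.22 ± 0.029 in ifosfamide pools (SD, n = 6, exact permutation p = 0.0758), a number that rises with the length counted per read. The values were 1.19, 1.16, 1.17, 1.16, 1.21 and 1.22 in control pools 1 to 6 and 1.24, 1.25, 1.23, 1.21, 1.17 and 1.2 in ifosfamide pools 1 to 6. With it as a covariate, 425 windows were called lower and 157 higher in edgeR, and 238 of the 572 called windows were called again. Of the sharp windows, 119 were called lower and 5 higher in that fit, and their median fold change was -0.08 (log2). The longest gain run had 25 windows in that fit, and the median fold change at 2 kb from called windows was 0.00 for losses and 0.66 for gains. For gains it was 0.39 in the main fit, 0.08 in the robust edgeR fit, 0.09 without ifosfamide pool 5 and 0.14 without control pool 6.

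In F2 ifosfamide sperm the windows called lower in F1 had a median signal of 2.89 CPM, beside 3.08 CPM in F1 control and 1.76 CPM in F1 ifosfamide sperm. The windows called higher had a median of 1.36 CPM in F2, beside 1.06 and 1.80 CPM. The F2 values were scaled by library totals alone and the F1 values by TMM, so the 2 generations were not normalised together. The F1 contrast chose both lists, so values of the F1 groups are drawn apart by that choice and the F2 values are given as a description.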

How the data were processed

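The authors' deposited table, per the file headers, holds read counts per 1 kb window for each of the 12 F1 pools, without normalization. Their processing notes name FastQC, Trimmomatic, Bowtie2, SAMtools and edgeR with the Rnor_6.0 build, with no version or setting of any of them given in the sources used here. The deposited RPKM values, per the file headers, served only to recover the number of reads and so the windows counted per read. Counts of 6 F2 ifosfamide pools, from a second deposited table, set a signal level. The 16 other libraries were not analysed here.

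Counts were fitted with edgeR 4.0.16 in R 4.3.3 (TMM, filterByExpr with a minimum count of 10, quasi-likelihood test, no covariate). Benjamini-Hochberg adjustment covered the tested windows of every chromosome, and autosomes are reported. CPM are TMM-scaled. Sums over 10 kb, 100 kb and 1 Mb bins were fitted alike. Shares of counts were compared by exact two-sided permutation over 924 splits. Alternatives included DESeq2 1.42.0, limma 3.58.1 (prior count 2), other scalings and filters, a replicate block, windows per read as a covariate and leaving out each pool.

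Named windows are the 6 longest runs in each direction, the 5 called windows of highest and the 3 of lowest control signal, and the 4 bins of lowest p per width and direction among those called, or the 1 of lowest p where none was. The windows, classes and rules were chosen with earlier results of these data known. The sharp class, the 4 megabases and the likeness search were chosen after the values were seen. The fit was tested on simulated counts. Intervals and tests cover the spread between pools and counting error, and PCR copies were not distinguished. Neither a gene annotation nor a sequence of the genome entered the work.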

Additional observations from a re-analysis of the deposited data

Results flagged for a closer look

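Across 43 named windows, runs and bins and 6 shares of counts, the pools of each group were checked for a value far from the others, 98 groups in all. In 3 of them the gap of 1 pool to its nearest neighbour, relative to the range of the group, exceeded Dixon's 95% critical value for 6 samples. Chance alone would give about 1 in 20 groups.

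In the window at chr1:253017001-253018000, called lower, control pool 1 stood at 0.589 CPM and the other control pools at 0.385 to 0.421 CPM. In the 100 kb bin at chr7:116300001-116400000, called lower, ifosfamide pool 3 stood at 61.1 CPM and the others at 65.3 to 67.6 CPM. In the 10 kb bin at chr7:145560001-145570000, called higher, ifosfamide pool 1 stood at 3.77 CPM and the others at 6.99 to 8.09 CPM. Without the pool in question, the window on chromosome 1 and the 10 kb bin on chromosome 7 stayed called in edgeR, and the 100 kb bin lost its call.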

How the results depend on the processing

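Counts of windows and bins changed with the fit, while called losses outnumbered called gains at 1 kb and 10 kb in each fit run. At 1 kb, windows called lower numbered 318 with DESeq2, 320 with the robust quasi-likelihood fit, 221 with limma-trend, 175 with a minimum count of 30, and 115 to 1769 without 1 pool. Windows called higher numbered 18, 24, 29 and 10 under the same 4 settings, 98 with no filter beyond 12 counts in total, 157 with windows per read as a covariate and 12 to 162 without 1 pool. At 10 kb, bins called lower numbered 55 with the robust fit, 18 without their highest window and 81 to 475 without 1 pool. Bins called higher numbered 25 with DESeq2, 1 with the robust fit, 52 with the covariate, 16 with ifosfamide pools 1 and 2 summed, and 0 to 36 without 1 pool. At 100 kb, bins called lower numbered 32 with DESeq2, 4 with the robust fit, 8 with DESeq2 size factors, 7 with limma-trend, 8 with the covariate, 10 with pools 1 and 2 summed, 2 without their highest window, and 0 to 63 without 1 pool. Bins called higher there numbered 6 with DESeq2, 2 with the covariate and 0 to 3 without 1 pool. At 1 Mb, DESeq2 called 5 lower and 4 higher, the covariate fit called 1 higher, and 0 to 6 were called lower without 1 pool. With the pool number as a replicate block, 307 windows were called lower at 1 kb, 20 bins higher at 10 kb, and 32 lower and 3 higher at 100 kb. The labels give no link between pools of the same number, whose deviations from their group means correlated at -0.262 to 0.0696 over 100 kb bins, and no control pool correlated best with the ifosfamide pool of its own number.

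Loss runs of 3 or more windows numbered 17 at an unadjusted p below 0.01, 250 with a gap of 1 window allowed and 77 to 202 without 1 pool. Gain runs of 3 or more numbered 18, 193 and 93 to 186 under the same settings and 231 with the covariate, and 9.18% of windows shifted higher lay in runs of 2 or more at the stricter p. The share of counts in the 5th decile of signal, -0.0551 points, became 0.00731 with deciles set by the control pools. The chromosome 14 difference of 0.0651 points ran from 0.0571 to 0.0775 without 1 pool and passed the threshold without control pool 3 (adjusted p = 0.0433), and that of the first decile of chromosome length ran from 0.0492 to 0.0689 and passed without control pool 5 (adjusted p = 0.0238). The 10 kb bin at chr15:78120001-78130000 turned from -0.96 to 0.11 (log2) without its highest window. The cause of these changes was not tested. The robust fit, TMM factors taken before the filter, library sizes over tested windows, bins without their highest window, the shape classes and the 4 megabases were added after the data were seen. Depth limits the weak windows most, with a median SE of 0.28 (log2) in the lowest decile of signal and 0.15 in the highest.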

Other observations

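At 1 Mb the bins of lowest p in each direction, neither of them called, were chr1:36000001-37000000 and chr1:11000001-12000000. The first stood at 466 ± 27.8 CPM in control and 418 ± 8.35 CPM in ifosfamide pools (SD, n = 6; -0.16 log2, edgeR adjusted p = 0.357). It holds the sharp window at chr1:36361001-36362000, which had 21.7% of its counts, and its fold change was -0.02 (log2) without that window. The second stood at 1200 ± 139 and 1460 ± 91.6 CPM (0.28 log2, edgeR adjusted p = 0.417), and 0.28 remained without its highest window, which had 5.24% of its counts. The 100 kb bin of lowest p among those higher, chr13:91200001-91300000, was not called (edgeR adjusted p = 0.064). Its control pools ranged from 57 to 61.8 CPM and its ifosfamide pools from 63.6 to 74.3 CPM, without overlap, and its fold change was 0.19 (log2), or 0.23 without its highest window.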
